A study of Mus musculus with 12 samples.

Results

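The quadriceps of newborn and adult mice were compared by small RNA sequencing, with 3 libraries from animals at postnatal day 1 (P1) and 3 from animals at postnatal day 90 (P90). All 6 came from wild-type C57BL/6J mice, with no transgene, deletion or treatment in either group. They belong to a series of 12 libraries, which also holds P5 and P14 muscle. The series was made to learn which miRNAs altered in muscle that lacks the splicing factor MBNL1 also change as muscle matures. The study's methods name separate mice for each age, so the libraries were taken as separate animals, although the labels give only replicate numbers. The comparison used every mature miRNA row of the deposited count table. Of 1966 rows, 1424 had a count at P1 or P90, and 809 passed the filter on low counts and were tested.

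A miRNA is cut from a hairpin, whose 5′ and 3′ arms give the mature forms named 5p and 3p. The mature strand is loaded into Argonaute and pairs with target mRNAs through its seed, bases 2 to 8, so miRNAs with the same seed share predicted targets. In skeletal muscle a small set of muscle miRNAs, miR-1, miR-133 and miR-206 among them, is transcribed under myogenic factors. Many others come from long polycistronic transcripts, such as that of the imprinted Dlk1-Dio3 region, which is expressed from the maternal chromosome.

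The mature sequences of the miRNAs with the largest changes are given first, from RefSeq on GRCm38.p6, because seeds and near-identical relatives return below. In each sequence the seed is in capitals. The first lines hold miRNAs that were higher at P90, with the miR-29 family first, whose 3p forms share the seed AGCACCA.
miR-29a-3p: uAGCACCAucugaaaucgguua
miR-29b-3p: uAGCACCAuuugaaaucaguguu
miR-29c-3p: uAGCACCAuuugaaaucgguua
miR-22-3p: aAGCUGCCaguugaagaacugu
miR-22-5p: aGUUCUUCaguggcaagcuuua
miR-30a-3p: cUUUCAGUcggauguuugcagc
miR-30a-5p: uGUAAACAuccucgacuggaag
miR-30c-2-3p: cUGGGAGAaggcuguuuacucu
miR-181a-2-3p: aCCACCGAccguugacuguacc
miR-378d: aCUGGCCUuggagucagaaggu
MiR-29a-3p and miR-29c-3p differed at 1 of 22 bases, and the mature forms lie at chr6:31062673-31062694 on the minus strand and chr1:195037600-195037621 on the plus strand.

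The next sequences belong to miRNAs that were lower at P90, all from the plus strand of the Dlk1-Dio3 region on chromosome 12. MiR-376b is shown with both arms, since their ratio turned over between the ages.
miR-431-5p: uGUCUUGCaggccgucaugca
miR-433-3p: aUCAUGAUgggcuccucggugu
miR-380-3p: uAUGUAGUaugguccacaucuu
miR-543-3p: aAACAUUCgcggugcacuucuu
miR-666-3p: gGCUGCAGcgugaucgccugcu
miR-485-3p: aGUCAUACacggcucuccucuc
miR-376b-5p: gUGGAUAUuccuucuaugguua
miR-376b-3p: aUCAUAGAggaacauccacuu
All of these seeds differ. The mature forms lie between chr12:109590459-109590479 for miR-431-5p, whose hairpin overlaps Rtl1, and chr12:109734946-109734967 for miR-485-3p. MiR-487b-3p belonged to the same set of largest decreases.

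The content of the libraries was examined first. Total miRNA counts ranged from 25472336 to 26783448 at P1 and from 43776307 to 53126984 at P90. The 10 most abundant miRNAs of each library held 56.8%, 51.5% and 56.1% of its counts at P1 and 90.8%, 91.7% and 93.6% at P90. To reach 90% of the counts, 66, 73 and 68 miRNAs were needed at P1 but only 9, 8 and 6 at P90. The groups did not overlap in either measure. Both differences had p = 0.1 in a 2-sided exact permutation test, the smallest value that 3 libraries against 3 can give. At P90 the 551 to 581 miRNAs with at least 10 counts per library were fewer than the 735 to 757 at P1. This number depends on the counts left beside the 10 most abundant miRNAs, a smaller share at P90.

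MiR-1a-3p, the main muscle miRNA, held 26.8, 22.2 and 26.2% of the counts in the P1 libraries and 53, 54.5 and 56.8% in the P90 libraries. The row of miR-1b-5p, whose hairpin faces a miR-1a hairpin on the opposite strand, held 13.5, 11.3 and 13.11% and 26.6, 27.4 and 28.5%. Across the table, facing arms had nearly the same counts in 31 of 35 pairs tested, where they differed by less than 2%, so the strand of origin cannot be told from the table. Together the miR-1a-3p and miR-1b-5p rows left 59.6%, 66.5% and 60.7% of the P1 counts and 20.4%, 18.13% and 14.7% of the P90 counts to all other miRNAs. A miRNA can therefore lose share of the counts and still be called higher, and each result is given with the scaling it needs.

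**Figure D1:**
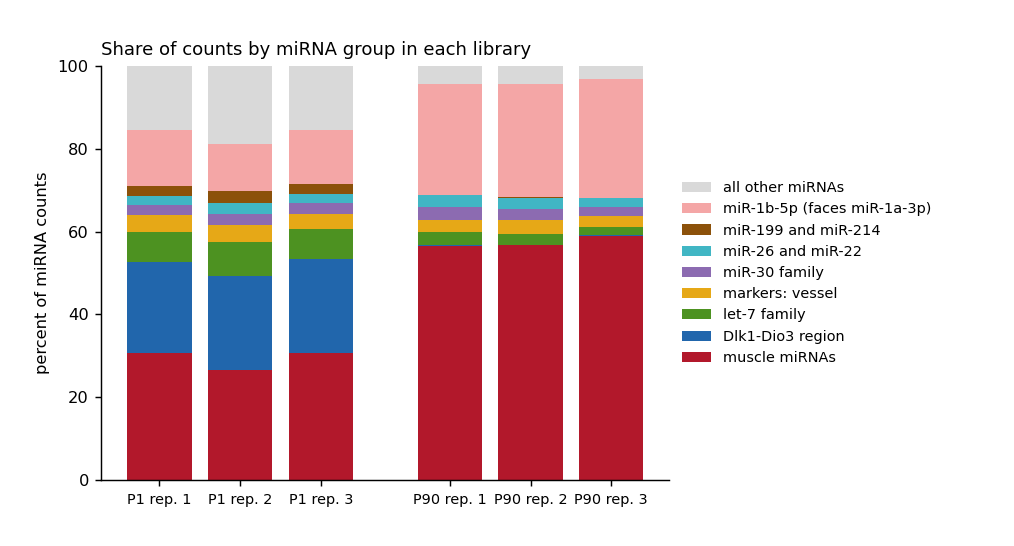
Percent of all miRNA counts (vertical axis, 0 to 100) taken by 7 groups of miRNAs, by the miR-1b-5p row and by all other miRNAs in each of the 3 P1 and 3 P90 libraries (stacked bars). The muscle miRNAs held 26.7 to 30.8% at P1 and 56.6 to 59.0% at P90, while the Dlk1-Dio3 region held 21.9 to 22.6% at P1 and 0.0934 to 0.146% at P90, so muscle miRNAs were the largest listed group in every library.

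Levels are given as CPM, the count scaled to a common library size, after correction of that size with TMM factors (normalised CPM). They are relative and, since the P90 factors lay between 0.247 and 0.384 and the P1 factors between 1.46 and 1.70, do not sum to the same total in each library. A miRNA was called when the adjusted P value (Padj) of the edgeR quasi-likelihood test was under 0.05. In total 537 of the 809 miRNAs tested were called (66.4%), 204 higher (25.2%) and 333 lower (41.2%) at P90. Numbers of calls in the groups below stand beside these shares. The median log2 fold change (log2FC, P90 minus P1) over all miRNAs tested was -0.72. It was -0.37 with RLE factors, -2.97 with library totals alone and 1.177 with upper-quartile factors. The split between directions moved accordingly, with 246 higher and 304 lower, 36 and 647, and 391 and 192. A smaller set was called in the same direction with all 4 scalings, namely 36 miRNAs higher (4.45%) and 192 lower (23.7%). These are the numbers called higher with library totals alone and lower with upper-quartile factors, so a single scaling set the limit in each direction. The libraries of the 2 ages did not overlap for 587 miRNAs (72.6%). A change of scaling moves most log2FC by nearly the same amount. Distances of group medians from the median of all miRNAs therefore depended less on it by their construction, which is no separate support. With TMM factors these were -4.94 for the Dlk1-Dio3 region, -5.26 for other imprinted miRNAs, -3.31 for the miR-322 cluster, -2.13 for the Sfmbt2 cluster, -1.79 for miR-199 and miR-214 and -0.83 for the miR-17-92 clusters, all described below.

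**Figure D2:**
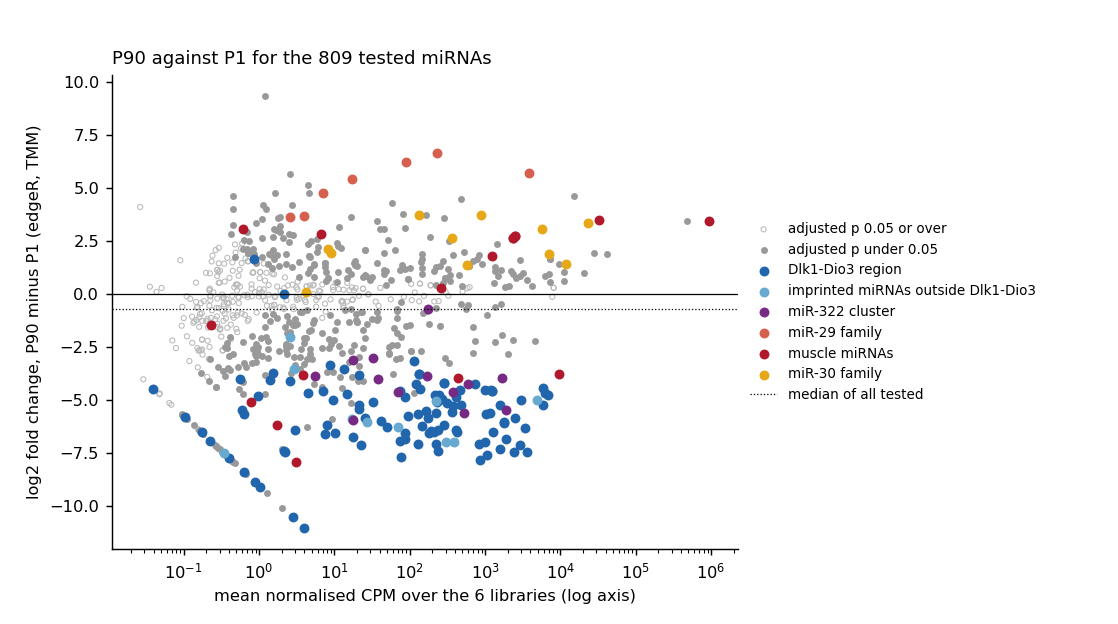
Log2FC between P90 and P1 (vertical axis, edgeR with TMM factors) against the mean normalised CPM over the 6 libraries (horizontal log axis) for 809 miRNAs, filled where Padj was under 0.05, with 6 groups in colour and the median of -0.72 dotted. The Dlk1-Dio3 miRNAs lie near the bottom at all levels of abundance and the miR-29 family near the top. The diagonal at the lower left holds miRNAs with no count at P90.

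The largest increases among miRNAs of at least 100 normalised CPM were those of the miR-29 and miR-22 genes. MiR-29c-3p, known for repressing collagen and other matrix mRNAs, was at 4.34, 3.99 and 5.12 normalised CPM in the P1 libraries and 325, 542 and 506 in the P90 libraries (log2FC 6.67, SE 0.26, edgeR Padj = 2.08e-12). Its more abundant relative miR-29a-3p was at 123, 196 and 116 normalised CPM in the P1 libraries and 5817, 8496 and 8427 in the P90 libraries (log2FC 5.70, SE 0.24, edgeR Padj = 4.91e-12). The lowest P90 library exceeded the highest P1 library many times for both. All 7 tested forms of the family were higher at P90 with each of the 4 scalings, and their median log2FC was 5.41, or 6.13 above the median of all miRNAs. The ratio of miR-29c-3p to miR-29a-3p within a library was 0.0352, 0.0203 and 0.0440 at P1 and 0.0558, 0.0638 and 0.0601 at P90. This ratio, which needs no scaling, was higher in all 3 P90 libraries (exact permutation p = 0.1, the smallest possible). As the sequences differ at a single base, reads of these 2 miRNAs could be exchanged by mismatched alignment.

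MiR-22, encoded in the host transcript Mir22hg on chromosome 11, rose in both arms. MiR-22-3p, the dominant arm, was at 1312, 1061 and 1154 normalised CPM in the P1 libraries and 25413, 28522 and 32179 in the P90 libraries (log2FC 4.61, SE 0.14, edgeR Padj = 2.6e-13). MiR-22-5p was at 42.9, 35.5 and 43 normalised CPM in the P1 libraries and 840.1, 848 and 1035 in the P90 libraries (log2FC 4.49, SE 0.16). Both arms changed by nearly the same amount, and the P1 and P90 libraries were far apart for each. MiR-26a-5p, the most abundant form of the miR-26 and miR-22 list, was at 11214, 12227 and 11056 normalised CPM in the P1 libraries and 44876, 41614 and 46875 in the P90 libraries (log2FC 1.95, SE 0.11), but its share of the counts was 1.64, 2.08 and 1.73% at P1 and 1.72, 1.48 and 1.16% at P90, and with library totals alone its log2FC was -0.32. Of the 7 forms on this list, 5 were higher and 1, miR-26a-1-3p, was lower, with 15, 23 and 42 counts at P1 and 0, 3 and 2 at P90. The median of the list was 1.35 with TMM factors and -0.91 with library totals alone.

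The miR-30 family, which shares the seed GUAAACA in its 5p forms and is abundant in differentiated muscle, was higher at P90 with TMM factors for 10 of 11 forms tested. MiR-30a-5p was at 4255, 3833 and 4241 normalised CPM in the P1 libraries and 37151, 40098 and 49252 in the P90 libraries (log2FC 3.36, SE 0.16). Its minor arm miR-30a-3p was at 131, 119.8 and 120.4 normalised CPM in the P1 libraries and 1729.6, 1419 and 1779.9 in the P90 libraries (log2FC 3.73, SE 0.16), and miR-30c-2-3p, from another hairpin on chromosome 1, was at 16, 19.1 and 20.1 normalised CPM in the P1 libraries and 244, 245 and 254 in the P90 libraries (log2FC 3.75, SE 0.16). These 3 and miR-30c-5p were higher under all 4 scalings. The median of the family was 2.10 with TMM factors and -0.17 with library totals alone, and 2.81 above the median of all miRNAs. MiR-30d-3p, with 146, 176 and 182 counts at P1 and 74, 65 and 61 at P90, was the form without a call (log2FC 0.07, SE 0.26, edgeR Padj = 0.829).

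Also among the 8 largest increases were miR-181a-2-3p, the minor arm of a miR-181a hairpin within Nr6a1 on chromosome 2, and miR-378d. MiR-181a-2-3p was at 23.1, 23.1 and 22.6 normalised CPM in the P1 libraries and 326, 284 and 308 in the P90 libraries (log2FC 3.74, SE 0.17). MiR-378d was at 19.4, 16.8 and 20.4 normalised CPM in the P1 libraries and 267, 209 and 269 in the P90 libraries (log2FC 3.72, SE 0.17). The 5 forms of the miR-378 family, whose founding member lies in the metabolic co-activator gene Ppargc1b, were all called higher with TMM factors (median 2.51), and miR-378b and miR-378d under all 4 scalings. The abundant miR-378a-3p was called higher with TMM factors (log2FC 1.43, SE 0.13) although its share of the counts was 0.824, 0.754 and 0.857% at P1 and 0.572, 0.432 and 0.364% at P90, and its log2FC was -0.83 with library totals alone.

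**Figure D3:**
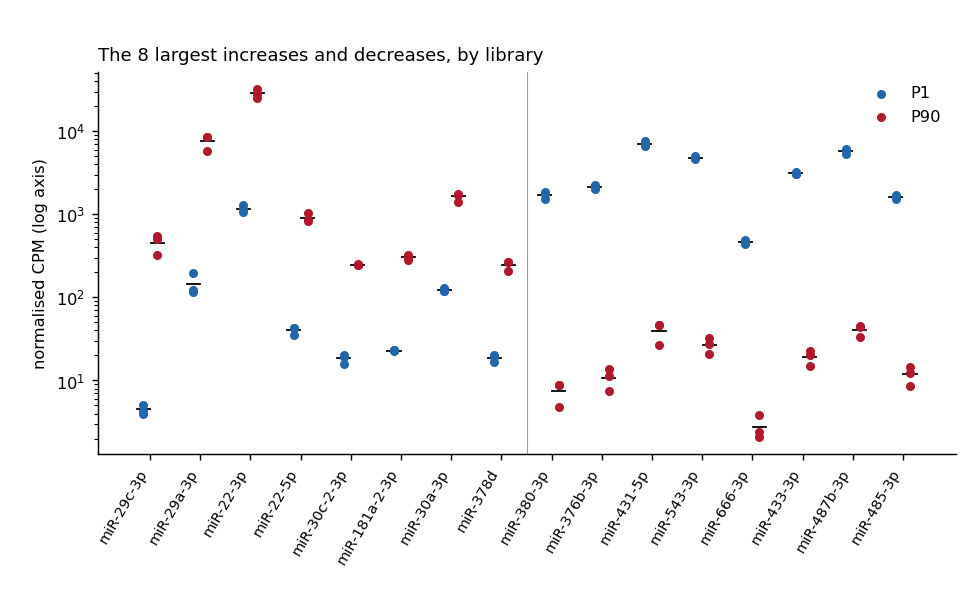
Normalised CPM (vertical log axis) of the 8 miRNAs with the largest increase (left of the line) and the 8 with the largest decrease (right) among those of at least 100 CPM, in the 3 P1 libraries (blue) and the 3 P90 libraries (red), with a bar at each mean. In none of the 16 do the libraries of the 2 ages overlap, a rule by which these miRNAs were chosen.

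The muscle miRNAs did not move as a block. Of 17 forms tested, 9 were higher and 6 lower at P90, and 2 higher and 6 lower under all 4 scalings. The 9 include 4 facing rows of miR-486a and miR-486b with nearly the same counts, which are not separate observations. The median log2FC was 1.79 with TMM factors and -0.50 with library totals alone, or 2.51 above the median of all miRNAs. MiR-133a-3p, which acts on proliferation and differentiation of muscle precursors, was at 6037, 5032 and 5246 normalised CPM in the P1 libraries and 70149.9, 43274 and 68276 in the P90 libraries (log2FC 3.48, SE 0.20, edgeR Padj = 1.95e-10). MiR-206-3p, the muscle miRNA enriched in regenerating and slow fibres, was at 16888, 17139 and 18919 normalised CPM in the P1 libraries and 1049, 1303 and 1513 in the P90 libraries (log2FC -3.78, SE 0.16, edgeR Padj = 5.06e-12). MiR-499-5p, encoded in the slow myosin gene Myh7b, was at 722, 749 and 991 normalised CPM in the P1 libraries and 15.2, 79.4 and 60.3 in the P90 libraries (log2FC -3.99, SE 0.45, edgeR Padj = 9.19e-07), with P90 replicate 1 at the bottom of a wide range. MiR-208b-3p, from the slow myosin gene Myh7, was at 5.85, 6.32 and 9.57 normalised CPM in the P1 libraries and 0.595, 0.477 and 0.416 in the P90 libraries (log2FC -3.85, SE 0.45). Thus both miRNAs hosted by slow myosin genes were lower at P90, and neither range overlapped that of P1.

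Ratios within a library give the balance of the muscle miRNAs free of any scaling. MiR-1a-3p exceeded miR-206-3p, a member of the same seed family, by 10.9, 7.63 and 8.84 times at P1 and 1315, 1178 and 1520.2 times at P90. MiR-206-3p and miR-133b-3p come from neighbouring hairpins in Lincmd1, and their ratio was 74, 64.4 and 87.6 at P1 and 3.72, 6.48 and 3.98 at P90. By contrast, the ratio of miR-1a-3p to miR-133a-3p, which also share their primary transcripts, was 30.4, 26 and 31.9 at P1 and 19.7, 35.5 and 33.7 at P90. The first 2 ratios did not overlap between the ages (exact permutation p = 0.1 for each, the smallest possible), whereas the third did (p = 1.0). MiR-133b-3p itself was at 228, 266 and 216 normalised CPM in the P1 libraries and 282, 201 and 380.3 in the P90 libraries (log2FC 0.28, SE 0.20, edgeR Padj = 0.234) and passed the threshold when P90 replicate 2 was left out (log2FC 0.45). The other arm, miR-133b-5p, had 69, 80 and 40 counts at P1 and 0, 2 and 0 at P90 (log2FC -5.10). The paper's primers for miR-133a and miR-133b differ only at their last base. Reads of miR-133a-3p and miR-133b-3p could be exchanged by mismatched alignment, which was not tested. The facing rows of miR-486a and miR-486b, from Ank1, rose together with TMM factors and cannot be told apart, with miR-486a-5p at 684, 606 and 636 normalised CPM in the P1 libraries and 4856, 3627 and 3685 in the P90 libraries (log2FC 2.66, SE 0.19, or 0.42 with library totals alone), and none of the 4 rows was called under all 4 scalings.

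The Dlk1-Dio3 region, the longest list with 107 of the 809 miRNAs tested, had more decreases than any other list. Its miRNAs held 21.9, 22.6 and 22.6% of the counts in the P1 libraries and 0.146, 0.0934 and 0.105% in the P90 libraries. Of 107 forms tested, 104 were lower, 102 of them under all 4 scalings, and they made up 31.2% of all decreases. Over all miRNAs tested, 41.2% were lower, and 23.7% were lower under all 4 scalings. The median log2FC was -5.65, or -5.10 with the 17 members that had at most 3 counts in every P90 library set to their bound. Of the 113 miRNAs that fell by over 5 on the log2 scale, 70 came from this region.

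Among the 8 largest decreases, all from chromosome 12, miR-380-3p was at 1742, 1546 and 1855 normalised CPM in the P1 libraries and 8.74, 4.83 and 8.91 in the P90 libraries (log2FC -7.85, SE 0.26, edgeR Padj = 3.35e-13). MiR-431-5p, from the Rtl1 part of the region, was at 7074, 6694 and 7555 normalised CPM in the P1 libraries and 45.9, 27 and 46.3 in the P90 libraries (log2FC -7.48, SE 0.22, edgeR Padj = 1.43e-13). MiR-543-3p was at 5042, 4631 and 4735 normalised CPM in the P1 libraries and 27.8, 21.1 and 32.2 in the P90 libraries (log2FC -7.48, SE 0.20). The remaining 5, miR-376b-3p, miR-666-3p, miR-433-3p, miR-487b-3p and miR-485-3p, had a log2FC between -7.62 and -7.10. The most abundant members fell somewhat less. MiR-379-5p was at 14012, 12897 and 12332 normalised CPM in the P1 libraries and 488, 342 and 583 in the P90 libraries (log2FC -4.80, SE 0.20), miR-434-3p at 12463, 12158 and 11839 normalised CPM in the P1 libraries and 603, 358 and 478 in the P90 libraries (log2FC -4.66, SE 0.19), and miR-127-3p, whose hairpin overlaps Rtl1, at 12264, 10547 and 11260.5 normalised CPM in the P1 libraries and 351, 205 and 339 in the P90 libraries (log2FC -5.25, SE 0.20). The other 3 members were not called lower. MiR-654-3p, with 17, 18 and 15 counts at P1 and 23, 23 and 16 at P90, was called higher with TMM factors (log2FC 1.67) but not under all scalings. MiR-540-5p, with 73, 106 and 81 and 35, 23 and 38 counts, and miR-1197-5p, with 0, 0 and 10 and 0, 0 and 0, did not pass the threshold.

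Imprinted miRNAs outside this region were lower as well. All 10 forms of miR-335, miR-483, miR-675, miR-296 and miR-298 were called lower, 9 of them under all 4 scalings, with a median log2FC of -5.98. MiR-335-5p, within the imprinted gene Mest, was at 10452, 8646 and 9201 normalised CPM in the P1 libraries and 256, 286 and 345 in the P90 libraries (log2FC -5.0, SE 0.21, edgeR Padj = 3.81e-12). MiR-483-3p, within the growth factor gene Igf2, was at 895, 713 and 715 normalised CPM in the P1 libraries and 7.67, 6.15 and 4.0 in the P90 libraries (log2FC -7.01, SE 0.30). MiR-298-5p, from the Gnas domain on chromosome 2, was at 618, 553 and 643 normalised CPM in the P1 libraries and 3.93, 2.86 and 7.66 in the P90 libraries (log2FC -7.00, SE 0.30). The Sfmbt2 cluster, many of whose miRNAs are near-identical copies that can share reads, had 30 of 34 tested forms lower and none higher. Its median was -2.84, and 12 forms were lower under all scalings. The highest form of the cluster, miR-467e-5p, was at 61.2, 57.1 and 56.4 normalised CPM in the P1 libraries and 4.28, 6.04 and 12.2 in the P90 libraries. Together the Dlk1-Dio3, imprinted, Sfmbt2 and miR-322 lists accounted for 157 of the 333 decreases (47.1%). They held 107, 10, 34 and 13 of the 809 miRNAs tested.

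Clusters linked to proliferation fell to different extents. The miR-322 cluster on the X chromosome, which includes miR-503 and miR-351 and is known to act on cell cycle mRNAs, had all 13 forms lower, 12 of them under all 4 scalings, with a median of -4.03. MiR-351-5p was at 3912, 3772 and 3469 normalised CPM in the P1 libraries and 96.2, 67.2 and 85 in the P90 libraries (log2FC -5.49, SE 0.17, edgeR Padj = 2.6e-13). MiR-322-5p was the exception in size, at 231, 207 and 212 normalised CPM in the P1 libraries and 93.7, 154 and 147 in the P90 libraries (log2FC -0.72, SE 0.19), and the ratio of miR-322-5p to miR-503-5p went from 0.294, 0.308 and 0.297 at P1 to 3.57, 4.94 and 5.14 at P90 (exact permutation p = 0.1, the smallest possible). The miR-17-92 clusters, classical Myc targets, had 16 of 20 forms lower and none higher with a median of -1.54, but only 1 was lower under all scalings and the median was 0.34 with upper-quartile factors. The miR-199 and miR-214 forms, some of whose hairpins overlap Dnm2 and Dnm3, were all lower with a median of -2.51, 3 of 6 under all scalings. Among them, miR-199a-3p had 280533, 360504 and 291930 counts at P1 and 31444, 24639 and 20680 at P90. MiR-199b-3p, with the same seed, had 143132, 185126 and 147597 and 16204, 12859 and 10990. Their reads may be shared, which was not tested, so these rows may not be separate observations. Outside the lists, all 10 tested forms of the miR-500 to miR-532 cluster within Clcn5 and all 4 of the miR-130b and miR-301b cluster were lower under all 4 scalings. These 2 clusters were singled out after their values were seen.

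The let-7 family, known for its rise with differentiation, was higher at P90 with TMM factors for 13 of 22 forms and lower for 2, but no form was called in the same direction under all 4 scalings. Let-7f-5p was at 14009, 13237 and 13576 normalised CPM in the P1 libraries and 24736, 25711 and 31232 in the P90 libraries (log2FC 1.00, SE 0.14), whereas its share of the counts was 2.05, 2.25 and 2.13% at P1 and 0.950, 0.913 and 0.771% at P90. The median of the family was 0.82 with TMM factors and -1.44 with library totals alone, and 1.54 above the median of all miRNAs. The miR-23, miR-27 and miR-24 clusters, with a median of 0.75 (-1.56 with library totals alone), had 7 of 11 forms higher and 1 lower, none of them under all scalings. Direction also depended on the scaling for the miR-99, miR-100 and miR-125 list (5 higher and 3 lower of 11, median 0.37), the miR-101, miR-148 and miR-152 list (4 and 4 of 11, median 0.15), the Hox cluster miRNAs (4 and 2 of 10, median 0.08), the miR-34 family (1 and 3 of 5, median -0.93) and the list of miR-221, miR-222, miR-31 and miR-489 (3 and 1 of 6, median 0.68). Over all miRNAs tested, 66.4% were called, 25.2% higher and 41.2% lower, and nothing is read from the number of calls in these lists.

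The miR-15 and miR-181 families had members called in both directions. In the miR-15 family, whose 5p forms carry the seed AGCAGCA with miR-322-5p, 5 of 11 forms were higher and 4 lower, with a median of -0.56 that was 1.29 with upper-quartile factors. MiR-195a-5p was at 54, 32.4 and 45.3 normalised CPM in the P1 libraries and 463, 455 and 655 in the P90 libraries (log2FC 3.58, SE 0.22, edgeR Padj = 6.19e-10), and its ratio to its neighbour miR-497a-5p was 1.84, 1.82 and 1.65 at P1 and 5.10, 5.02 and 5.02 at P90. MiR-16-5p, from 2 other hairpins, had a log2FC of 1.60 (SE 0.14), or -0.67 with library totals alone. In the miR-181 family, 3 of 10 forms were higher and 6 lower, with a median of -2.06. MiR-181c-5p, from chromosome 8, was at 109, 118 and 113 normalised CPM in the P1 libraries and 23, 21.1 and 20.2 in the P90 libraries (log2FC -2.40, SE 0.18) and miR-181d-5p beside it changed likewise (log2FC -2.78, SE 0.21), while miR-181a-5p, with the same seed, had a log2FC of 0.34 (SE 0.14, edgeR Padj = 0.0486), a call that was lost when any of 5 libraries was left out, all but P1 replicate 2 (log2FC 0.25 to 0.36).

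The brown fat lineage list also split by gene, with all 7 tested forms of miR-193 and miR-365 higher and both of miR-455 lower. Its median was 2.25, or -0.03 with library totals alone. MiR-365-3p was at 50.5, 52 and 46.9 normalised CPM in the P1 libraries and 331, 293 and 325 in the P90 libraries (log2FC 2.67, SE 0.15) and miR-455-3p at 386, 479.9 and 250.2 normalised CPM in the P1 libraries and 162, 119.8 and 111 in the P90 libraries (log2FC -1.51, SE 0.23). The miR-365-3p increase was not called with library totals alone, and the miR-455-3p decrease turned to 0.38 with upper-quartile factors. Of the 6 tested miRNAs linked to inflammation and fibrosis, 4 were higher with TMM factors (median 1.20, or -1.08 with library totals alone), of which miR-155-5p, at 8.53, 12.2 and 8.69 normalised CPM in the P1 libraries and 77.4, 68.3 and 100.3 in the P90 libraries (log2FC 3.06, SE 0.21), was higher under all 4 scalings. MiR-21a-5p, the most abundant of them, had a log2FC of 0.57 (SE 0.16), or -1.73 with library totals alone.

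**Figure D4:**
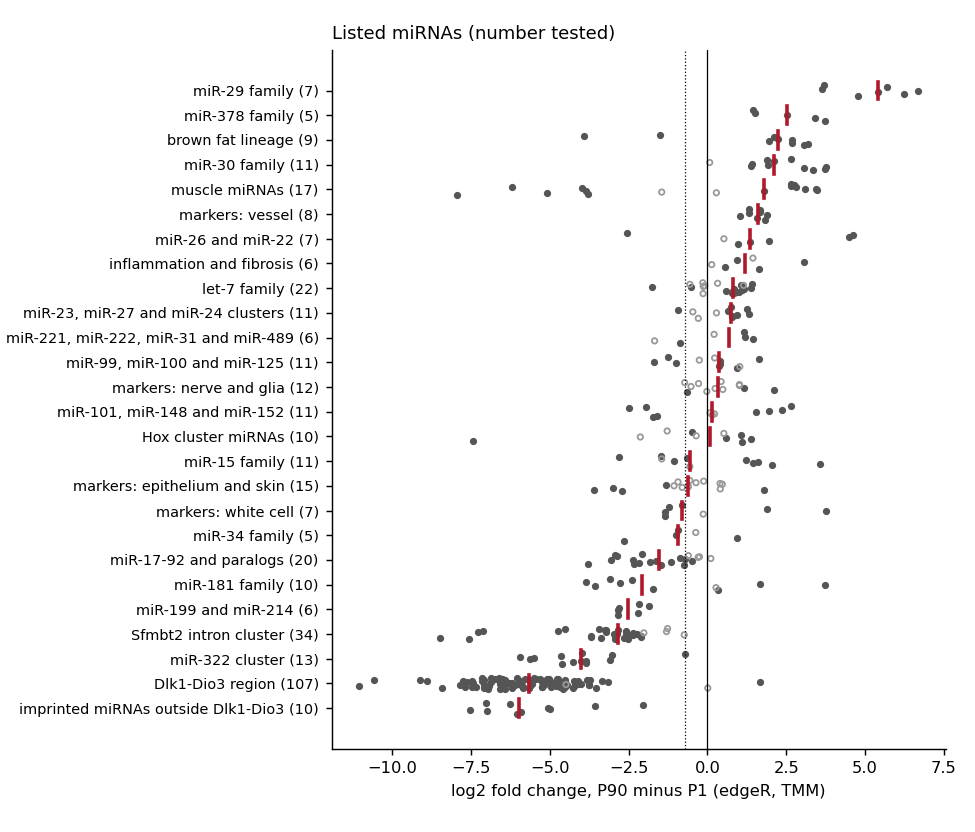
Log2FC between P90 and P1 (horizontal axis, edgeR with TMM factors) of each tested member of the lists with at least 5 tested members (rows, number tested in parentheses), filled where Padj was under 0.05, with a red bar at the list's median. The solid line marks 0 and the dotted line the median of all 809 miRNAs, -0.72.

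Direction was also counted by genomic cluster and by seed. Hairpins within 10000 bases of each other formed 50 clusters with at least 3 tested miRNAs of a single place. All calls were lower at P90 in 19 of them, all higher in 22, mixed in 6, and 3 had no call. A cluster with a single call counts as all lower or all higher, and some clusters hold facing rows with nearly the same counts. Among the mixed clusters, the region from miR-379 to miR-3072 had 73 lower and 1 higher of 75. Of 47 seeds with at least 2 called miRNAs, 14 had only higher and 23 only lower members, and 10 had members called in both directions. CCCUGAG, shared by miR-125b-5p, miR-125a-5p and miR-351-5p, was such a seed, with log2FC of 0.37, 0.39 and -5.49. The miR-125b-5p call was lost without P1 replicate 1 (log2FC 0.31) or P90 replicate 1 (0.18).

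When counts were summed by seed, 381 of 603 seeds differed (63.2%), 164 higher and 217 lower. The sums cover only miRNAs with a RefSeq sequence, which held 51.7 to 58.0% of the counts at P1 and 9.69 to 13% at P90. The largest increases among abundant seeds were AGCACCA of the miR-29 family (log2FC 6.04, SE 0.25) and AGCUGCC and GUUCUUC of the miR-22 arms (4.90 and 4.79). Next came UUUCAGU of miR-30a-3p and miR-30e-3p (3.64) and GUAAACA (3.22). The tested members of GUAAACA were miR-30a-5p, miR-30c-5p and miR-30e-5p, called higher, and miR-384-5p, called lower. Its sum left out miR-30b-5p and the abundant miR-30d-5p, whose log2FC was 1.40, or -0.86 with library totals alone. The AGCACCA seed held 0.0190, 0.0344 and 0.0194% of the counts at P1 and 0.241, 0.328 and 0.225% at P90. The largest decreases belonged to seeds of single Dlk1-Dio3 miRNAs, with log2FC from -7.55 for AUGUAGU of miR-380-3p to -7.04 for UCAUGAU of miR-433-3p. All 10 were called under every scaling and with each library left out.

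The ratio of the 2 arms of a hairpin was tested next, as it compares counts within a library and needs no scaling. Of 250 hairpins with both arms tested, 89 differed in their log2 ratio of 5p to 3p counts (35.6%), 46 toward the 5p arm and 43 toward the 3p arm. Of these, 58 changed by over 1 on the log2 scale. Within the Dlk1-Dio3 region 28 of 53 hairpins differed, 20 of them toward the 5p arm. In 6 of the called hairpins the dominant arm was the 3p in all libraries of one age and the 5p in all of the other, or the reverse.

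MiR-376b had the largest change among hairpins with at least 100 counts in both arms. Its 5p arm made up 9.16, 8.47 and 8.50% of the hairpin's counts at P1 and 67.3, 67.2 and 68.4% at P90, a change in log2 ratio of 4.45 (SE 0.11, limma Padj = 1.53e-10). Both arms fell, from 85447, 87925 and 86468 to 192, 139 and 164 counts for the 3p arm and from 8612, 8139 and 8036 to 395, 285 and 355 for the 5p arm. The 5p arm differs from miR-376c-5p at 1 of 22 bases, so reads may pass between them, which was not tested. The miR-376c-5p row held 62, 87 and 83 counts at P1 and 3, 0 and 0 at P90. These counts come after any such exchange and cannot show whether it took place. In miR-485 the 5p share went from 13.09, 13.5 and 15.5% to 49.2, 48.1 and 51.2%, a change of 2.59 (SE 0.10, limma Padj = 9.43e-09).

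Outside that region, the 5p share of miR-322 was 6.33, 6.09 and 6.97% at P1 and 32.3, 44.6 and 40.4% at P90, a change of 3.21 (SE 0.20, limma Padj = 4.47e-07). These arms are the following, with the seed in capitals, and the 5p arm carries the miR-15 family seed.
miR-322-5p: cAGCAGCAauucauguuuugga
miR-322-3p: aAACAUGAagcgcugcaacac
miR-195a-5p: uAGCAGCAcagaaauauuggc
For miR-195a the 5p share rose from 91.3, 93.2 and 90.7% to 97.7, 98 and 98%, a change of 2.08 (SE 0.17, limma Padj = 3.26e-06). The other tested hairpins with the seed AGCAGCA in their 5p arm were also called toward that arm, miR-15b by 2.14 (SE 0.13, limma Padj = 4.47e-07) and miR-15a, whose 3p arm had few counts (11, 26 and 41 at P1 and 3, 6 and 2 at P90), by 2.42 (SE 0.58, limma Padj = 0.00744). This seed was singled out after the values were seen.

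Toward the 3p arm, the largest changes among hairpins with at least 100 counts in both arms were -2.19 for miR-27a, -2.0 for miR-338, -1.88 for miR-664 and -1.66 for miR-133a, with SE from 0.14 to 0.24 and limma Padj of at most 0.000118. The 5p share of miR-133a was 8.73, 8.57 and 10.4% at P1 and 2.42, 3.73 and 3.30% at P90, with both arms called higher at P90. That of miR-338 was 72.6, 75.1 and 74.6% and 48.9, 34.2 and 42.2%. MiR-338 faces miR-3065 on the other strand, where nearly the same counts appear with the arms exchanged, so these 2 hairpins are a single observation. The other hairpins whose dominant arm differed were miR-877, miR-669a and miR-708. In miR-708, the 5p share was 32.4, 31.2 and 30.3% at P1 and 51.2, 57.2 and 52.4% at P90, a change of 1.35 (SE 0.22, limma Padj = 0.000716).

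**Figure D5:**
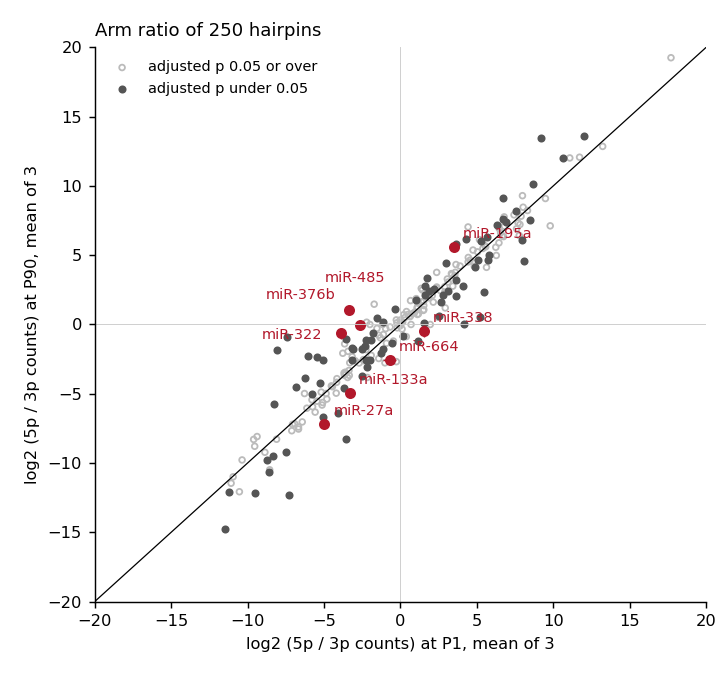
Mean log2 ratio of 5p to 3p counts at P90 (vertical axis) against P1 (horizontal axis) for 250 hairpins, filled where the limma Padj was under 0.05, with the 8 named hairpins in red and the line of equal ratios. MiR-376b lies above 0 at P90 and below 0 at P1, and miR-338 the reverse.

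Some miRNAs were close to absent at an age. At P90, 112 of the 809 tested miRNAs had at most 3 counts in every library, and 44 had none. MiR-1188-5p, from Rian in the Dlk1-Dio3 region, had 273, 349 and 349 counts at P1 and 0 in each P90 library, so it was at least 40.2-fold lower when the P90 level is set to 3 counts per library. MiR-496a-5p, from Mirg, had 183, 278 and 239 counts and 0, at least 28.9-fold lower. MiR-206-5p, the minor arm of miR-206, had 271, 283 and 206 counts at P1 and 0, 0 and 1 at P90, miR-301b-3p 273, 466 and 309 and 1, 2 and 2, and miR-1197-3p 226, 220 and 278 and 0, 0 and 3. At P1 only 6 tested miRNAs were at this level, and 2 of them were called. On average, 3 counts stood for 0.196 normalised CPM at P90 and 0.0734 at P1, so the ages were not compared at equal depth. The filter used all ages, so a miRNA could be tested through the ages where it was high. MiR-7019-3p, whose hairpin lies within the mitophagy kinase gene Pink1, had 0 counts in each P1 library and 34, 55 and 27 at P90, at least 32.7-fold higher. MiR-3058-3p, within Nudt4, had 0, 1 and 3 counts at P1 and 21, 19 and 4 at P90 (log2FC 4.61, SE 1.01). The others, miR-6929-5p, miR-7688-5p, miR-6976-5p and miR-3089-3p, did not pass the threshold.

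With TMM factors, 7 miRNAs without a call had a 95% interval of log2FC within ±0.5. The most abundant was let-7i-5p, at 8801, 8507 and 7209.6 normalised CPM in the P1 libraries and 6959, 6724 and 8578 in the P90 libraries (log2FC -0.14, interval -0.42 to 0.14). MiR-93-5p was at 492, 467 and 493 normalised CPM in the P1 libraries and 515, 539 and 509 in the P90 libraries (log2FC 0.11, interval -0.17 to 0.38). The next were let-7j, miR-320-3p, miR-423-5p and miR-142a-5p. This holds only for this scaling, as each of these 6 was lower with library totals alone and higher with upper-quartile factors.

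Sequence features of the called miRNAs are given as a description over the 688 tested miRNAs with a RefSeq sequence. The median GC content was 45.8% for miRNAs higher at P90, 47.8% for those lower and 52.4% for those not called. A U at the first base was found in 43.7% of the higher, 40.9% of the lower and 41.9% of all tested miRNAs. Among the 192 miRNAs lower under all 4 scalings, 106 were placed on chromosome 12 and 26 on the X chromosome, compared with 129 and 72 of all 809. None of the 36 higher under all scalings lay on the X chromosome. Calls depended on abundance, from 35.2% below 1 normalised CPM to 96.2% above 1000 CPM (77 of 80).

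Finally, markers of other cell types in whole muscle were examined. In bulk tissue, fewer cells of a type and less RNA per cell cannot be told apart. Calls in the marker lists stand beside 25.2% higher and 41.2% lower over all miRNAs tested. All 8 tested of 9 listed vessel miRNAs were called higher with TMM factors, with a summed level of 24423 to 28623 CPM at P1 and 76767 to 99754 at P90 and a median of 1.61, but their share of the counts was 4.18, 4.19 and 3.83% at P1 and 2.95, 3.34 and 2.46% at P90, and none was higher under all scalings. MiR-126a-3p, the endothelial miRNA of Egfl7, had a log2FC of 1.65 (SE 0.16). Both miR-126a rows face miR-126b rows with nearly the same counts. The 8 vessel forms, their sum and their share therefore hold these reads more than once. Of 7 white cell miRNAs 2 were higher and 4 lower, at a sum of 297 to 517 CPM at P1 and 334 to 471 at P90. The lymphocyte miRNA miR-150-5p, at 12.7, 9.46 and 11.3 normalised CPM in the P1 libraries and 182, 147 and 128 in the P90 libraries (log2FC 3.77, SE 0.19), was higher under all 4 scalings, whereas the myeloid miR-223-3p was at 153, 335 and 167 normalised CPM in the P1 libraries and 174, 78.5 and 125 in the P90 libraries (log2FC -0.80), a call lost without P1 replicate 2 (-0.39), P90 replicate 2 (-0.56) or P90 replicate 3 (-0.77).

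The remaining marker lists were as follows, with the libraries that changed a call. Of 3 red cell miRNAs, at a sum of 270.5 to 307 CPM at P1 and 264 to 508 at P90, miR-451a was called higher (log2FC 0.51, or -1.74 with library totals alone) and lost the call without any P1 library (0.46 to 0.60) or without P90 replicate 2 (0.16). Of 12 tested nerve and glia miRNAs (16 listed) 2 were higher and 1 lower, with sums of 1742 to 1919 and 1209 to 1401 CPM. Of 15 tested epithelium and skin miRNAs (20 listed) 1 was higher and 4 lower, with sums of 324 to 472 and 190.2 to 839 CPM. Here P90 replicate 2 stood apart, with miR-182-5p at 12.7, 325 and 26.2 CPM in the P90 libraries, and without it miR-182-5p was called lower (log2FC -2.22). The cartilage miRNA miR-140-3p was at 1907, 4446 and 296 normalised CPM in the P1 libraries and 466, 413 and 517 in the P90 libraries, with P1 replicate 3 below every P90 library, and its decrease (log2FC -2.25) was not called without P1 replicate 2 (-1.28) or P90 replicate 2 (-2.20). The liver miRNA miR-122-5p was at 44.2, 366 and 137 normalised CPM in the P1 libraries and 15, 47.5 and 20.7 in the P90 libraries (log2FC -2.71, -1.74 without P1 replicate 2), and of the 3 tested liver and islet forms it alone was called. The part of these cell types in the other results was not tested.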

How the data were processed

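Small RNA libraries were prepared from total RNA of 3 P1 and 3 P90 quadriceps samples. The authors deposited raw read counts per mature miRNA. According to the methods and the submitters' processing notes, reads of 10 to 35 nt were selected with cutadapt 1.18, aligned to GRCm38 with Bowtie2 2.4.1 and counted with featureCounts 2.0.1 on the miRBase annotation. The notes also name DESeq2 1.30.1. Strand and overlap settings are not given in the sources used here, so facing hairpins and near-identical miRNAs are uncertain.

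Counts were tested with the edgeR 4.0.16 quasi-likelihood test in R 4.3.3, in a fit to all 12 libraries with TMM factors, after filterByExpr, with Benjamini-Hochberg adjustment over all 809 miRNAs and a threshold of 0.05. Arm ratios, as log2 of 5p over 3p counts with an offset of 0.5, were tested with limma 3.58.1, and counts summed by seed with edgeR. Single values were compared by 2-sided exact permutation with scipy 1.17.1. These edgeR and limma fits were tested first on data simulated from the P1 profile, with changes balanced between directions. That setting lacks the shift in composition at P90, so it cannot show how the fits behave under it. DESeq2 1.42.0 was an alternative. Sequences and hairpin places came from RefSeq, which matched 1675 of 1966 miRNAs.

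The members and lists were chosen with earlier results of these data known. The miRNAs named were the 8 largest changes in each direction among called miRNAs of at least 100 CPM whose ages did not overlap, the 10 most abundant, muscle miRNAs of at least 10 CPM, the 4 largest arm changes in each direction, the 5 most abundant miRNAs with at most 3 counts per library at the other age, 6 stable miRNAs, the 2 most abundant of each list and the 5 seeds with the largest change in each direction. Other miRNAs in the text were chosen after their values were seen. Totals of 25472336 to 53126984 counts per library limit rare miRNAs, more so at P90, where 3 counts stood for a higher normalised CPM. Alternatives covered scaling, filter, samples, test, replicate block, facing hairpins and each library left out.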

Additional observations from a re-analysis of the deposited data

How the results depend on the processing

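Scaling decided the direction of moderate changes. Library totals alone gave 36 miRNAs higher and 647 lower, and upper-quartile factors 391 and 192. With library totals alone the log2FC turned negative for miR-143-3p (-0.41), miR-26a-5p (-0.32), let-7f-5p (-1.29), miR-133b-3p (-2.04), miR-133a-5p (-0.50), miR-6929-5p (-0.60), miR-6976-5p (-1.76), miR-93-5p (-2.15), miR-320-3p (-2.17), miR-423-5p (-2.18), miR-30d-5p (-0.86), let-7a-5p (-1.66), miR-181a-5p (-1.93), miR-181b-5p (-2.01), miR-16-5p (-0.67), miR-24-3p (-2.01), miR-27b-3p (-1.36), miR-378a-3p (-0.83), miR-125b-5p (-1.88), miR-99a-5p (-1.33), miR-10b-5p (-1.22), miR-196a-5p (-1.21), miR-34a-5p (-1.37), miR-221-3p (-1.09), miR-222-3p (-1.13), miR-21a-5p (-1.73), miR-146a-5p (-0.58), miR-451a (-1.74), miR-126b-5p (-0.63), miR-9-5p (-1.80), miR-203-3p (-1.83), miR-182-5p (-1.71) and miR-375-3p (-1.82). With upper-quartile factors it turned positive for let-7i-5p (1.73), let-7j (1.78), miR-142a-5p (1.76), miR-92a-3p (1.39), miR-25-3p (1.17), miR-34c-5p (0.88), miR-455-3p (0.38), miR-144-5p (1.32), miR-223-3p (1.09), miR-128-3p (1.25) and miR-140-5p (0.34). RLE factors turned let-7i-5p (0.20), let-7j (0.25) and miR-142a-5p (0.21), DESeq2 let-7i-5p (0.18), let-7j (0.23) and miR-142a-5p (0.19), the fit of P1 and P90 libraries only let-7j (0.038) and miR-142a-5p (0.000905), and the filter of a mean of at least 10 counts at P1 or P90 let-7j (0.0057). Leaving out P1 replicate 1 turned miR-423-5p (-0.00682), P90 replicate 1 miR-320-3p (-0.12) and miR-423-5p (-0.03), and P90 replicate 2 miR-6976-5p (-3.88), miR-203-3p (-0.35) and miR-182-5p (-2.22). With 1 library left out the log2FC ranged from -0.12 to 0.16 for miR-320-3p, -0.0282 to 0.17 for miR-423-5p, -3.88 to 0.82 for miR-6976-5p, -0.35 to 0.76 for miR-203-3p and -2.22 to 1.00 for miR-182-5p. The cause was not tested.

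With 1 library left out, 511 to 517 miRNAs were called in all, 185 to 201 higher and 310 to 329 lower, 78 to 94 arm ratios and 357 to 369 seeds. The rise of the share of the 10 most abundant miRNAs ranged from 35.6 to 38.2 percentage points, and the change in the number of miRNAs for 90% of counts from -62.8 to -59.3. Among the 75 hairpins with at least 100 mean counts in both arms at both ages, 38 differed in the fit of all 250 hairpins. When these 75 were fitted alone, 47 differed. The 8 named arm ratios and 10 named seeds kept their direction and call under every alternative run. DESeq2 called 262 higher and 310 lower.

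Deviations from the mean of each age had r = 0.00025, 0.075 and -0.040 between same-numbered libraries. Between libraries of different numbers, r ranged from -0.063 to 0.063. With 3 libraries per age these values cannot decide whether the numbers pair the samples. With the replicate number as a block, 527 miRNAs were called, 198 higher and 329 lower, with 84 arm ratios and 374 seeds, and miR-6976-5p (-0.18) and miR-182-5p (-0.40) changed sign.

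Depth limited miRNAs of few counts, since 112 tested miRNAs had at most 3 counts in every P90 library. Facing hairpins and the missing strand setting limit which strand a count belongs to.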
